A study of Rattus norvegicus with 6 samples.

Results

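Matrix proteases, their inhibitors and the lysyl oxidases that crosslink the matrix were examined in gastrocnemius muscle of rats on 3 protein diets. The genes were Mmp2, Mmp9, Mmp14, Timp1, Timp2, Timp3, Lox, Loxl1, Loxl2 and Adamtsl4, chosen by symbol. They were chosen with earlier results of these data known, so their counts beside those of all genes are descriptive. All 10 were measured, each by 1 row of the table, among 14506 genes in all. The data were 6 Rat Gene 1.0 ST arrays, with 2 arrays per diet, and each value is a log2 signal. The leucine diet took 7.1% of its energy from casein and 2.9% from added leucine. In the dairy diet the protein was complete dairy (skim milk powder), and in the control diet it was casein. The animals of all 3 groups were male Sprague-Dawley rats made obese by diet. They ate a high-fat, high-sucrose food of 4.6 kcal/g, with 10% of the energy as protein, for 8 weeks, and were 20 weeks old at sampling. The design text counts 4 rats per diet, and no label ties an array to a rat. The p-values therefore measure the spread between these arrays, which may be technical.

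The extracellular matrix of muscle is a collagen mesh around fibres, bundles and vessels that carries force and is laid down mainly by fibroblasts. Matrix metalloproteinases (MMPs) are zinc enzymes made as inactive precursors, and they cut collagens and other matrix proteins once the propeptide is removed. Tissue inhibitors of metalloproteinases (TIMPs) bind the active enzymes. TIMP2 has a second role, since together with the membrane protease MMP14 it forms the complex that activates the MMP2 precursor. Lysyl oxidases are copper enzymes that oxidise lysines in collagen and elastin, which then form crosslinks. ADAMTSL4 resembles the ADAMTS proteases without their catalytic domain and binds fibrillin microfibrils.

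Upstream sequences are shown for 4 members that follow different patterns across the diets. Timp2 and Loxl1 had their lowest signals on the leucine arrays, Adamtsl4 its highest on the dairy arrays, and Timp1 a high signal on a single casein array. The RefSeq promoter table of build GRCr8 matched 5 of the 10 members, namely Timp1, Timp2, Timp3, Loxl1 and Adamtsl4. Each sequence holds the 250 bases before the annotated start, 5′ to 3′ on the minus strand, which is the gene's strand in all 4. Capitals mark matches on either strand to TGANTCA (the AP-1 site), TGANTAA (a variant of it), GGGCGG (the GC box) or TATAAA (the TATA box), motifs that do not overlap in these windows. The windows lie at chr10:104089215-104089464 for Timp2, chr8:67612225-67612474 for Loxl1, chr2:185935797-185936046 for Adamtsl4 and chrX:3771123-3771372 for Timp1.
Timp2: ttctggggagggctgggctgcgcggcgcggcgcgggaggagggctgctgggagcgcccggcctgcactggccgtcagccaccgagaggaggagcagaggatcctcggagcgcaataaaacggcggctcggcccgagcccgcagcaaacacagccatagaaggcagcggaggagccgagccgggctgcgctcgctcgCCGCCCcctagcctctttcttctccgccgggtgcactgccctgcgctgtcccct
Loxl1: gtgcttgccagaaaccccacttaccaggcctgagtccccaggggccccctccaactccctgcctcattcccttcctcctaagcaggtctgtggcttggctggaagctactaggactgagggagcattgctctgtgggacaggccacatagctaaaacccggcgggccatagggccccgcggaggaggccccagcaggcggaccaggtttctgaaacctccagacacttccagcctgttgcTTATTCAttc
Adamtsl4: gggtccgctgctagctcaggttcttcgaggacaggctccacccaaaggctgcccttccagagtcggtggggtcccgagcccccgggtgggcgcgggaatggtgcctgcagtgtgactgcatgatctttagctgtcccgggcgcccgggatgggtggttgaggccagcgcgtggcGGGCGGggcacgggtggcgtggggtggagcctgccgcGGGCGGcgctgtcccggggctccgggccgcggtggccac
Timp1: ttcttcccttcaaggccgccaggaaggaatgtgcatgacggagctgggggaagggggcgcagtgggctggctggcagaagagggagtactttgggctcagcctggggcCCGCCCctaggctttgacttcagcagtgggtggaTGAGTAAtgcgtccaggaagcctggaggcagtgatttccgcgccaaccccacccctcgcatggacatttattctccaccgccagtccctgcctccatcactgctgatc
Timp2 held 1 GC box and Adamtsl4 held 2. Loxl1 held 1 copy of TGANTAA. Timp1 held 1 GC box and 1 copy of TGANTAA, which reads TGAGTAA there. Of 33469 upstream windows of the same length, 30.5% held GGGCGG, 9.23% TGANTAA, 6.34% TGANTCA and 12.9% TATAAA, so such matches are common and describe the letters only.

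The 2 casein arrays were not alike. Casein array 2 had a mean correlation of 0.974 with the other arrays over all genes, against 0.985 to 0.988 for the other 5. With each gene set relative to its own mean over the arrays, the median on that array was −3.04 for 10 slow-fibre markers and 1.98 for 14 hepatocyte markers. Hepatocyte markers also differed within the other diets. Their medians were −1.03 and 0.86 on leucine arrays 1 and 2, and −0.38 and −1.22 on dairy arrays 1 and 2. Since casein array 2 had the lowest correlation with the rest, many members and gene lists compared with casein are also given without it. In any fit that leaves out an array, the diet concerned is 1 array. The spread then comes from the arrays of the other diets, so an unadjusted p from such a fit holds no spread of that diet. Fast-fibre markers had a mean log2 signal of 12.1, with 11 of 11 above the median gene. Slow-fibre markers had a mean of 9.41, with 10 of 10 above it. In 60.8% of all genes at least 2 of the 6 arrays held exactly the same value, among them the members Timp1, Lox and Loxl2, and an SD of 0 in a diet comes from such equal values.

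**Figure D1:**
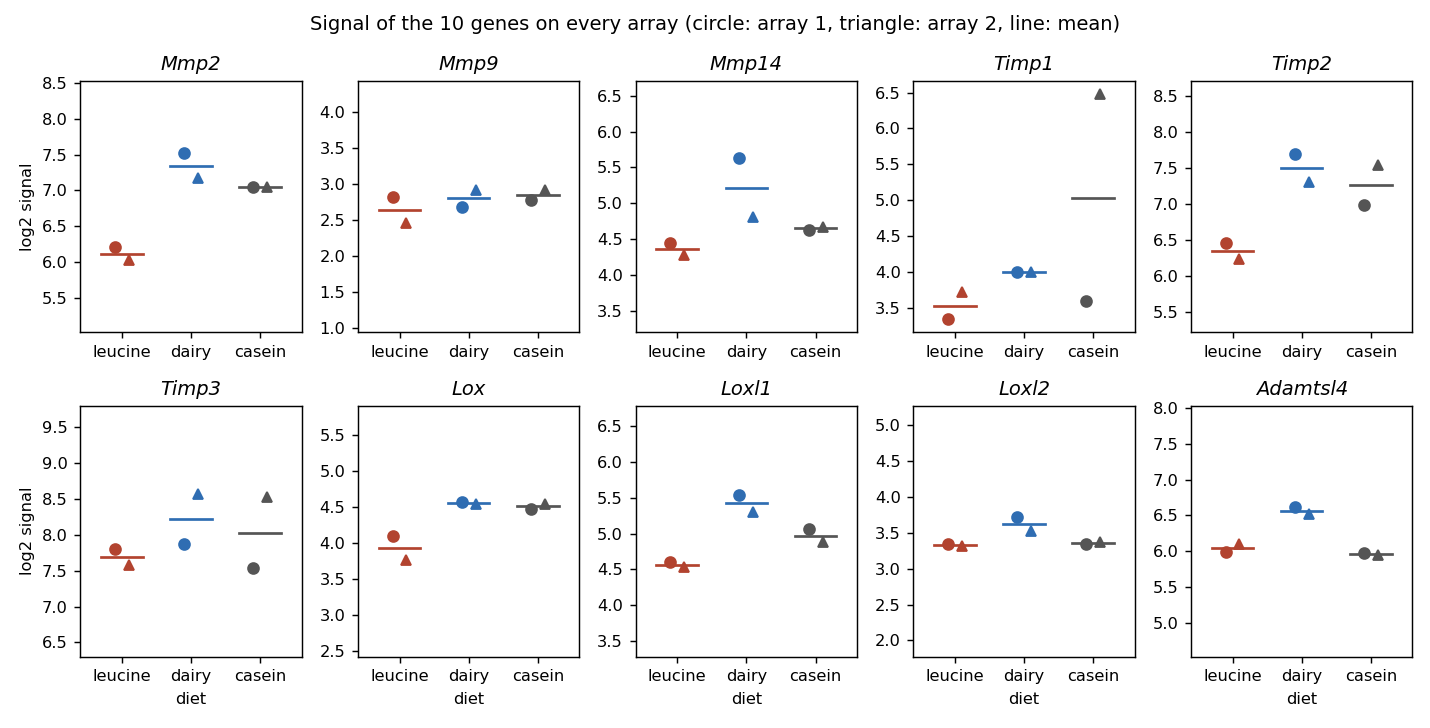
Log2 signal (vertical axis, the same span in each panel) of the 10 genes on the 2 arrays of the leucine, dairy and casein diets. Circles are array 1, triangles array 2 and lines the mean of a diet. Mmp2, Timp2, Lox and Loxl1 have both leucine arrays below the other 4, and Timp1 reaches 6.48 on casein array 2.

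Mmp2, a gelatinase that cuts denatured and basement-membrane collagen, had log2 signals of 6.21 and 6.03 on the leucine arrays, 7.52 and 7.17 on the dairy arrays and 7.05 and 7.05 on the casein arrays. Both leucine arrays lay below the other 4, and the groups did not overlap in any pair of diets. The mean was 6.12 ± 0.12 on the leucine, 7.34 ± 0.24 on the dairy and 7.05 ± 0.0011 on the casein arrays (SD, n = 2 each). Mmp14, the membrane-anchored collagenase, had 4.45 and 4.28 with leucine, 5.63 and 4.81 with dairy and 4.63 and 4.66 with casein. The leucine arrays were again the lowest pair, at smaller distances, and dairy array 1 stood above the rest. Mmp9, a gelatinase known from neutrophils and macrophages, had 2.82 and 2.45 with leucine, 2.68 and 2.92 with dairy and 2.78 and 2.91 with casein. Its diets overlapped in every pair. Its mean of 2.76 and that of Loxl2, 3.44, lay below the signal of the median gene, 4.15, so both were dim, and the other 8 members lay above it.

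Timp2, the inhibitor that also takes part in MMP2 activation, had 6.46 and 6.23 with leucine, 7.70 and 7.30 with dairy and 6.98 and 7.54 with casein. Its leucine arrays were the lowest, and its dairy and casein arrays overlapped. Timp1, an inducible and broadly acting inhibitor, had 3.34 and 3.71 with leucine, 3.99 and 3.99 with dairy, and 3.59 and 6.48 with casein. Of these 6 values 5 lay between 3.34 and 3.99, and casein array 2 stood apart. Timp3, the inhibitor that stays bound to the matrix, had 7.81 and 7.58 with leucine, 7.87 and 8.56 with dairy and 7.54 and 8.52 with casein. One dairy and one casein array, at 8.56 and 8.52, stood above the others, and the leucine arrays overlapped with casein.

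Lox, the lysyl oxidase that crosslinks fibrillar collagen and elastin, had 4.10 and 3.76 with leucine, 4.57 and 4.54 with dairy and 4.48 and 4.54 with casein. The 4 dairy and casein values lay close together above both leucine arrays. Loxl1, which acts on elastic fibres, had 4.60 and 4.53 with leucine, 5.54 and 5.31 with dairy and 5.07 and 4.88 with casein. Its 3 diets were fully separated, with dairy highest and leucine lowest. Loxl2, which acts on collagen IV of basement membranes, had 3.35 and 3.32 with leucine, 3.73 and 3.53 with dairy and 3.35 and 3.38 with casein. Adamtsl4 had 5.99 and 6.10 with leucine, 6.61 and 6.52 with dairy and 5.97 and 5.95 with casein. In Loxl2 and Adamtsl4 the dairy arrays were the 2 highest, while leucine and casein arrays lay near each other.

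The comparison of leucine with casein asked what the exchange of part of the casein for free leucine changed. In 9 of the 10 genes the mean was lower with leucine, with a median log2 fold change of −0.37, against a median of 0 and 50.0% lower among all genes. Mmp2 was 1.90-fold lower (−0.93 ± 0.14, SE of the model), Timp2 1.89-fold lower (−0.92 ± 0.25), Lox 1.49-fold lower (−0.58 ± 0.13) and Loxl1 1.33-fold lower (−0.41 ± 0.12). These 4 had an unadjusted limma p under 0.05, namely 0.00213 for Mmp2, 0.0188 for Timp2, 0.00940 for Lox and 0.0233 for Loxl1. Of all genes 4.85% were lower at that level, and 4.76% were higher, where 0 members were. After Benjamini-Hochberg adjustment over 14506 genes by limma, 0 members and 0 genes passed the threshold of 0.05, and 1394 genes had an unadjusted p under 0.05. The adjusted p was 0.353 for Mmp2 and between 0.387 and 0.911 for the other 9. In 5 members both leucine arrays lay below both casein arrays (Mmp14 beside those 4), and in 1, Adamtsl4, above them. Of all genes 15.6% lay apart in the lower and 15.9% in the higher direction.

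The members outside those 4 gave wider or smaller values. Timp1 had a log2 fold change of −1.50 ± 0.99, with a 95% interval from −4.17 to 1.16. Without casein array 2 its fold change was −0.06, and without casein array 1 it was −2.95. Timp3 stood at −0.33 ± 0.42, or 0.16 without casein array 2. Mmp14 stood at −0.28 ± 0.29, Mmp9 at −0.21 ± 0.16, Loxl2 at −0.03 ± 0.09 and Adamtsl4 at 0.08 ± 0.07. Loxl2 turned to 0.07 after quantile normalization and also after subtraction of array medians.

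Without casein array 2, Mmp2 stood at −0.93, Timp2 at −0.64, Lox at −0.55 and Loxl1 at −0.50. The median of the 10 was then −0.21, 8 were lower, and Mmp2 and Loxl1 kept an unadjusted p under 0.05, while 6.96% of all genes were lower at that level. With leucine array 1 left out, 2 members, Mmp2 and Lox, were lower at that level, as were 4.45% of all genes. The same 2 were lower without leucine array 2, where 5.28% of all genes were.

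**Figure D2:**
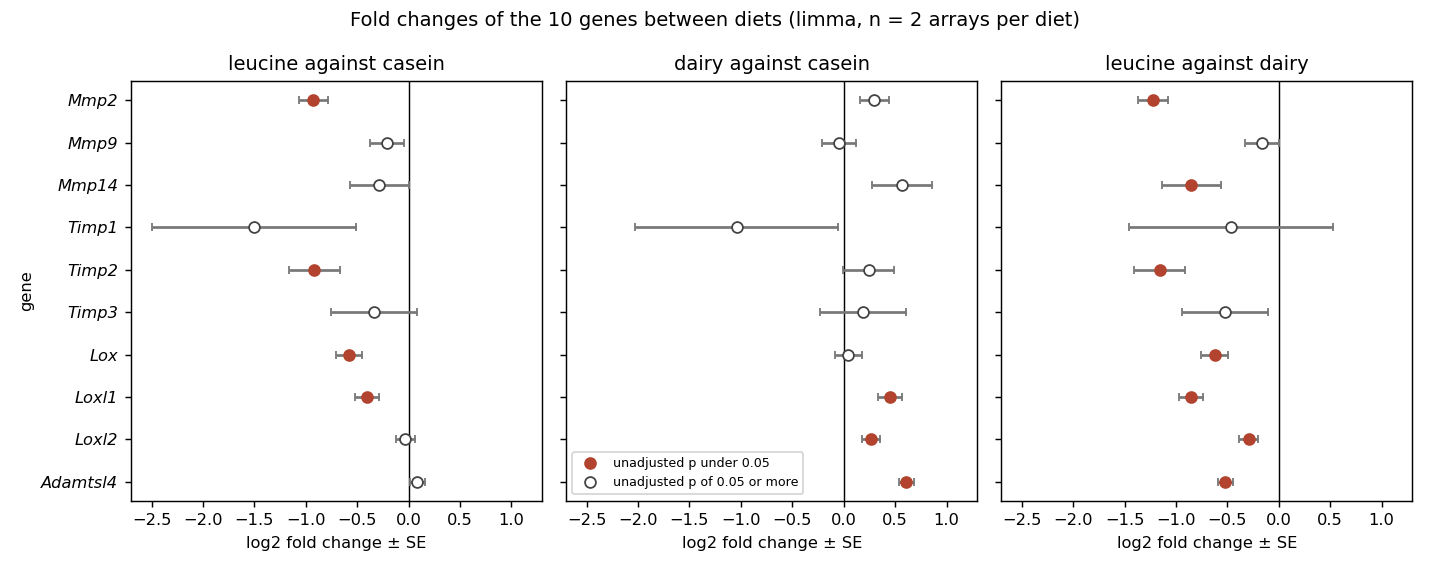
Log2 fold change (horizontal axis) with the standard error of the limma model for the 10 genes (vertical axis) in each pair of diets. Filled points have an unadjusted p under 0.05, which 4, 3 and 7 genes had from left to right, and 0 passed after adjustment over all genes.

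The comparison of dairy with casein asked what complete dairy protein changed. In 8 of the 10 genes the mean was higher with dairy, with a median log2 fold change of 0.25, against 0.0028 for all genes. Adamtsl4 was 1.52-fold higher (0.61 ± 0.07), from means of 6.57 ± 0.06 on the dairy and 5.96 ± 0.02 on the casein arrays (SD, n = 2 each). Its unadjusted limma p was 0.000784, the seventh smallest of all genes. Loxl1 was 1.37-fold higher (0.45 ± 0.12) and Loxl2 1.20-fold higher (0.26 ± 0.09), with unadjusted limma p of 0.0165 and 0.0371. These 3 were the members higher at an unadjusted p under 0.05, a level at which 2.49% of all genes were higher, and 0 members were lower, against 2.31% of all genes. By limma 0 of 14506 genes passed the adjusted threshold, with 696 at an unadjusted p under 0.05, and the adjusted p was between 0.833 and 0.966 for the 10 members.

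Mmp2 (0.30 ± 0.14) and Mmp14 (0.57 ± 0.29) also had both dairy arrays above both casein arrays. Together with the lysyl oxidase-like pair and Adamtsl4 this made 5 members apart in the higher direction and 0 in the lower one, where 11.5% and 11.7% of all genes lay apart. Without dairy array 1, Mmp14 stood at 0.16 and Mmp2 at 0.12, and without dairy array 2 they stood at 0.98 and 0.47. Lox stood at 0.04 ± 0.13, Timp2 at 0.24 ± 0.25, Timp3 at 0.19 ± 0.42 and Mmp9 at −0.05 ± 0.16. Timp1 stood at −1.04 ± 0.99, or 0.40 without casein array 2.

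Without casein array 2 all 10 members were higher, with a median of 0.38. Adamtsl4 alone then had an unadjusted p under 0.05, at a fold change of 0.59, while 5.14% of all genes were higher at that level. Timp3 stood at 0.68 and Timp2 at 0.52 without that array. Adamtsl4 ranged from 0.56 to 0.65 when each array was left out in turn, and Loxl1 from 0.33 to 0.56.

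The comparison of leucine with dairy does not use the casein signals, which enter only through the shared estimate of the spread. The mean of each of the 10 genes was lower with leucine, with a median log2 fold change of −0.57, against 0 for all genes. Mmp2 was 2.34-fold lower (−1.22 ± 0.14), Timp2 2.23-fold lower (−1.16 ± 0.25), Loxl1 1.81-fold lower (−0.86 ± 0.12) and Mmp14 1.80-fold lower (−0.85 ± 0.29). Lox stood at −0.62 ± 0.13, Adamtsl4 at −0.52 ± 0.07 and Loxl2 at −0.29 ± 0.09. These 7 had an unadjusted limma p between 0.000684 for Mmp2 and 0.0383 for Mmp14, a level at which 3.45% of all genes were lower, and 0 members were higher, against 2.25% of all genes. Mmp2 had the eighth smallest p of all genes. By limma 0 of 14506 genes passed the adjusted threshold, 827 had an unadjusted p under 0.05, and the adjusted p was 0.514 for Mmp2, Loxl1 and Adamtsl4.

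In 9 members, all but Mmp9, both leucine arrays lay below both dairy arrays, where 14.9% of all genes did, and in 0 members above them, against 13.4% of all genes. Timp3 (−0.52 ± 0.42), Timp1 (−0.46 ± 0.99) and Mmp9 (−0.16 ± 0.16) had an unadjusted p of 0.05 or more. Without leucine array 2, 4 of the 7 remained at an unadjusted p under 0.05, namely Mmp2 at −1.14, Loxl1 at −0.82, Adamtsl4 at −0.58 and Lox at −0.45, while 4.38% of all genes were lower at that level. Mmp14 stood at −0.44 without dairy array 1 and at −1.26 without dairy array 2. The comparisons with casein share its 2 arrays, so their values are set side by side only. Loxl1 stood at −0.41 with leucine and 0.45 with dairy against casein, Mmp2 at −0.93 and 0.30, Lox at −0.58 and 0.04, and Adamtsl4 at 0.08 and 0.61.

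**Figure D3:**
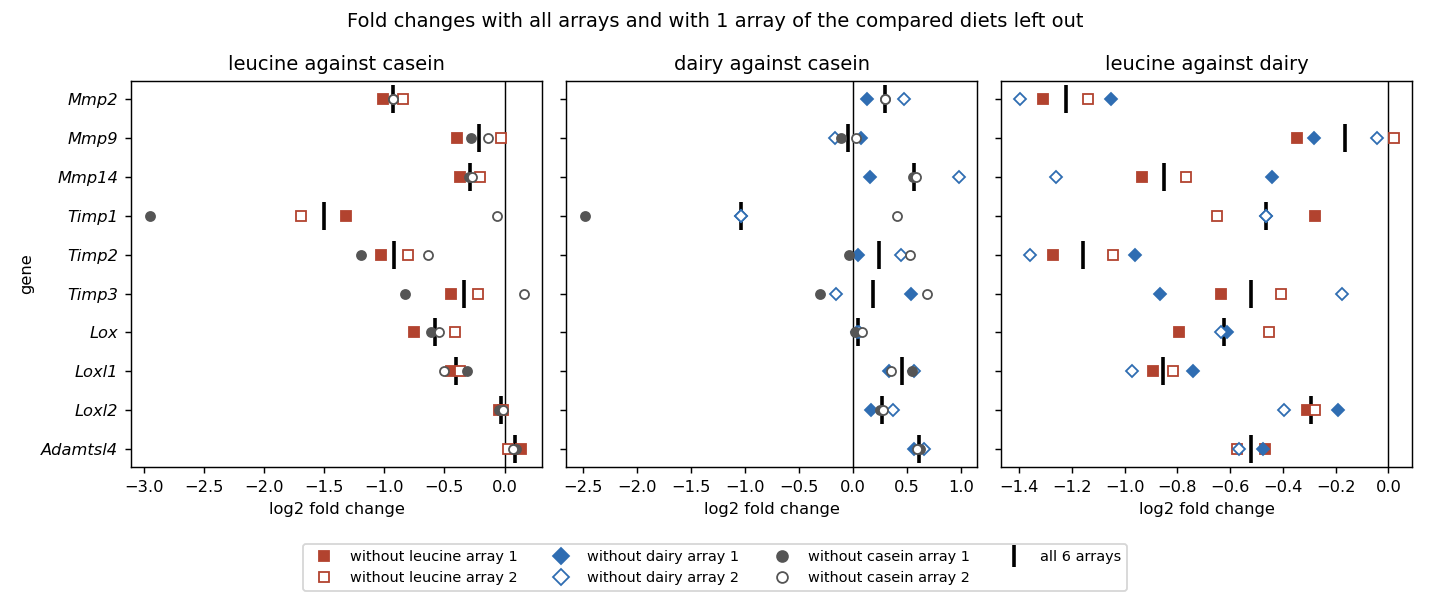
Log2 fold change (horizontal axis) of the 10 genes (vertical axis) with all 6 arrays (black bar) and with 1 array of the compared diets left out (symbols). Each panel has its own horizontal scale. Timp1 spans −2.95 to −0.06 for leucine against casein, while Mmp2 spans −1.01 to −0.84.

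Across the 6 arrays Mmp2 varied most like Timp2 among the members (Pearson r = 0.953 over 6 arrays), followed by Lox (0.943) and Loxl1 (0.940). Mmp14 varied most like Loxl2 (0.961), and Loxl2 also had an r of 0.909 with Adamtsl4. These values describe 6 arrays that share 3 diets. Among the 7239 other genes of above-median signal whose values varied, those nearest to Mmp2 were Actn1 (0.996), Pip4k2c (0.994) and Slc39a1 (0.994). Nearest to Lox were Kctd5 (0.993), Plgrkt (0.993) and Igfbp6 (0.990), and nearest to Mmp14 were Ctps2 (0.991), Tent5a (0.990) and Zfp110 (0.987).

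Nearest to Timp1 were Junb (0.999), Fosl2 (0.998) and Chi3l1 (0.997). Junb and Fosl2 encode subunits of the AP-1 transcription factor, and Chi3l1 encodes a secreted chitinase-like protein. Junb had signals of 4.69 and 5.07 with leucine, 5.59 and 5.59 with dairy, and 5.09 and 9.19 with casein. As for Timp1, the likeness rests on casein array 2, where all 4 genes were highest.

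The proteins that these enzymes cut or crosslink were read from a list of collagens and elastic fibre genes, of which 15 of 20 were measured. All 15 were lower with leucine than with casein, 8 at an unadjusted p under 0.05, where 4.85% of all genes were, 12 lay apart, where 15.6% of all genes did, and their median log2 fold change was −0.51. All 15 were also lower without casein array 2, with a median of −0.52. Col1a1, which encodes the alpha 1 chain of type I collagen, had 6.69 and 6.91 with leucine and 8.97 and 8.51 with casein, or −1.94 ± 0.27. Col1a2, the other chain, stood at −1.90 ± 0.36, Col4a1 of basement membranes at −0.54 ± 0.09 and Col5a1, a minor fibrillar chain, at −0.35 ± 0.06. Between leucine and dairy all 15 lay apart in the lower direction (14.9% of all genes), 10 at an unadjusted p under 0.05 (3.45% of all genes), with a median of −0.93. Col3a1, the type III chain, stood at −1.44 ± 0.17 there and at 0.74 ± 0.17 for dairy against casein. In that comparison 14 of 15 were higher, 2 at an unadjusted p under 0.05 (2.49% of all genes), the other being Mfap5, a microfibril protein, at 0.78 ± 0.27, or 0.43 without dairy array 1. With casein array 2 left out, 9 of 15 were higher, 0 at that level, with a median of 0.17. By limma 0 of the 15 passed after adjustment in any of the 3 comparisons.

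Genes of collagen maturation had 22 of 24 members measured, with a median log2 fold change of −0.12 for leucine against casein, and 3 lower and 1 higher at an unadjusted p under 0.05, where 4.85% and 4.76% of all genes were. The median without casein array 2 was −0.04, with 12 of 22 lower and 10 higher with leucine. Pcolce, the enhancer of the procollagen C-proteinase, had 5.50 and 5.72 with leucine, 6.79 and 6.45 with dairy and 6.48 and 6.51 with casein, 1.85-fold lower with leucine than with casein (−0.89 ± 0.15). Pcsk6, a proprotein convertase, stood at −0.59 ± 0.09 and Loxl3, a further lysyl oxidase-like gene, at −0.30 ± 0.10. Without casein array 2, Pcolce stood at −0.87, Pcsk6 at −0.67 and Loxl3 at −0.20. Furin, a convertase that can activate the MMP14 precursor, stood at 0.26 ± 0.07 with leucine and likewise at 0.26 ± 0.07 with dairy, both against casein, and at 0.32 in both without casein array 2. Between leucine and dairy, Pcolce stood at −1.01 ± 0.15 and Pcsk6 at −0.60 ± 0.09. They were the 2 of 22 genes lower at an unadjusted p under 0.05, where 3.45% of all genes were.

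The other proteases were counted at the same level, at which 2.25% to 4.85% of all genes were higher or lower in a given comparison. Of 18 other MMPs measured, 0 had an unadjusted p under 0.05 between leucine and casein, 1 was lower with dairy than casein (Mmp21, −0.43 ± 0.13, or −0.28 without casein array 2) and 1 lower with leucine than dairy (Mmp15, a membrane-type MMP, −0.42 ± 0.13). With casein array 2 left out, Mmp21 was not at that level and Mmp12 was, at 0.38 for dairy against casein. Of 11 ADAMTS proteases, Adamts5, an aggrecanase, stood at −0.90 ± 0.22 between leucine and dairy, the only one at that level in any comparison. The 2 measured relatives of Adamtsl4 had none, but without casein array 2 one of them, Adamtsl3, was lower at that level with leucine (−0.36) and with dairy (−0.43) than with casein. In the plasminogen and cathepsin list 2 of 14 were lower with leucine than casein. They were Plaur, the urokinase receptor, at −0.58 ± 0.18 and Plau, urokinase itself, at −0.78 ± 0.27, or −0.50 and −0.53 without casein array 2, when 0 of the 14 were lower at that level. Ctsk, a collagen-cutting cathepsin, at −0.62 ± 0.15 and Ctsh at −0.63 ± 0.22 were lower with leucine than dairy. Without casein array 2, the cathepsin genes Ctsh, Ctsk, Ctsl and Ctss stood between 0.51 for Ctsh and 0.83 for Ctss for dairy against casein. Of the 14 genes of the list, 8 were then higher and 6 lower, with a median of 0.26. Plg, which encodes plasminogen and is a liver transcript, stood at −1.50 ± 0.54 for dairy against casein, or −0.91 without casein array 2. Hepatocyte markers were lower in that comparison in 14 of 14, at a median of −1.92, or −0.80 without casein array 2.

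At an unadjusted p under 0.05, 4.85% of all genes were lower with leucine than casein and 3.45% lower with leucine than dairy. Of 10 other inhibitors, Serpinf1, a secreted serpin without protease-inhibiting activity, was the only one at that level with all 6 arrays. It was 2.95-fold lower with leucine than casein (−1.56 ± 0.38, or −1.51 without casein array 2, then not at that level) and 3.22-fold lower with leucine than dairy (−1.69 ± 0.38). Timp4, the remaining TIMP, stood at 0.33 ± 0.28 with leucine and 0.50 ± 0.28 with dairy against casein. Cst3, also of this list, stood at 0.21 ± 0.29 for dairy against casein. Without casein array 2 it stood at 0.60, and the median of the list was 0.11. Of 16 genes of TGF-beta signalling, a pathway known to induce collagen and Lox, 0 had an unadjusted p under 0.05 between leucine and casein. When casein array 2 was left out, 2 were lower (Ccn2 at −0.58 and Smad2 at −0.14) and 2 higher (Smad4 at 0.22 and Tgfb2 at 0.66) at that level, where 6.96% and 6.31% of all genes were. Tgfbr3, a co-receptor, stood at −0.89 ± 0.20 and Ltbp1, a binding protein of latent TGF-beta, at −0.37 ± 0.11 for leucine against dairy. They were the 2 of 16 lower there at an unadjusted p under 0.05, where 3.45% of all genes were. Smad4, the shared signal transducer, stood at 0.25 ± 0.07 and Ltbp1 at 0.33 ± 0.11 for dairy against casein. These were the 2 of 16 higher there at that level, where 2.49% of all genes were. Ltbp1 stood at 0.21 without casein array 1 and at 0.44 without casein array 2. None of the related genes named here passed limma's adjusted threshold.

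**Figure D4:**
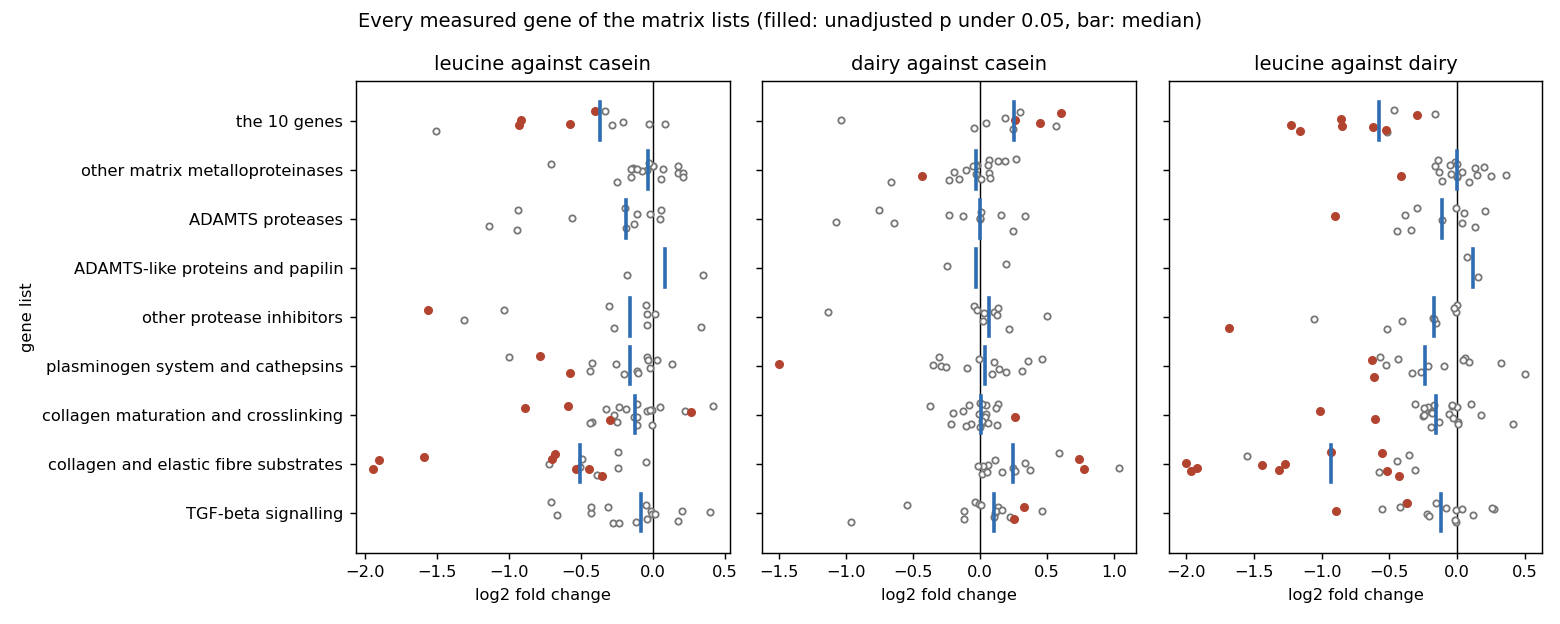
Log2 fold change (horizontal axis, its own scale per panel) of every measured gene of the 10-gene group and of 8 related lists (vertical axis). Filled points have an unadjusted p under 0.05 and blue bars are list medians, which for the collagen and elastic fibre list are −0.51, 0.25 and −0.93 from left to right.

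Markers of cells that express these genes also differed in signal between the arrays. Fibroblast markers, 11 of 12 measured and 4 of them also in the collagen and elastic fibre list, were lower with leucine than casein in 11 of 11, with a median of −0.59, and in 11 of 11 against dairy, with a median of −1.13. Set against casein array 1 alone, 10 of 11 were lower, at a median of −0.48. Their summed linear signal was 1475 and 1765 on the leucine arrays, 3186 and 4947 on the dairy arrays and 3562 and 3605 on the casein arrays. Pdgfra, a marker that encodes no matrix protein, had 5.14 and 5.27 with leucine, 6.07 and 5.64 with dairy and 5.66 and 5.70 with casein. Thy1, another of the fibroblast markers, had 3.94 and 4.14 with leucine, 4.42 and 3.83 with dairy and 4.14 and 4.58 with casein. Its leucine and dairy arrays overlapped. Macrophage markers were lower with leucine than casein in 12 of 12, with a median of −0.59. Without casein array 2, 6 of 12 were lower, with a median of −0.08. They were lower with leucine than dairy in 12 of 12, with a median of −0.69. For dairy against casein, 9 of 12 macrophage markers were higher, with a median of 0.08. Without casein array 2, 11 of 12 were, with a median of 0.72. Their summed signal was 283 and 301 on the leucine arrays, 480 and 499 on the dairy arrays and 289 and 785 on the casein arrays. Neutrophil markers summed to between 60.4 and 63.2 on 5 arrays and to 162 on casein array 2, with 0 of 9 above the median gene. That sum was carried mostly by Lcn2, at 6.59 on casein array 2 against 3.40 to 3.67 on the others. Mpo had 3.23 on both casein arrays. With each gene set relative to its own mean, the median of the neutrophil markers on casein array 2 was 0.17. Smooth muscle and pericyte markers were lower with leucine than casein in 6 of 9 and endothelial markers in 3 of 9. Without casein array 2 these were 8 of 9 and 5 of 9. Against dairy, 7 of 9 smooth muscle and pericyte markers and 8 of 9 endothelial markers were lower with leucine. Adipocyte markers were lower with leucine than casein in 6 of 8, with a median of −0.69 (−0.39 without casein array 2), and lower than dairy in 8 of 8, with a median of −0.61. The part of these cell markers in the results for the 10 genes was not tested, and in whole muscle, fewer cells of a type and less RNA per cell cannot be told apart.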

How the data were processed

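The authors deposited 1 log2 signal per array and transcript cluster of the Rat Gene 1.0 ST array, and the submitters' processing notes name Affymetrix Expression Console as the software. How it was set (version, background, normalization, summary of probes) is not given in the sources used here. Values ran from 1.14 to 13.7, with array medians between 3.46 and 3.56, and the number of arrays limits the precision. The labels name gastrocnemius muscle, while storage and extraction steps in the protocols mention liver.

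Of 29214 clusters, 15310 had 1 gene in the platform annotation, 323 had several, and current symbols came from RefSeq by gene identifier for 15279. Where a symbol had several clusters (527 genes), the one with the highest mean was used, which left 14506 genes. Each member had 1 cluster.

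All 6 arrays entered 1 linear model with diet as the single term, in limma 3.58.1 in R 4.3.3, which left 3 residual degrees of freedom. P-values were moderated by empirical Bayes, two-sided, and adjusted by Benjamini-Hochberg over all genes with a threshold of 0.05. In 5 runs of simulated data with 14506 genes, 200 of them changed with leucine, the fit of leucine against casein recovered 43.8% of genes changed by 1 and 80.8% of those changed by 2 on the log2 scale. The simulated noise was normal, independent between arrays and drawn from the fitted variance prior. It held no array that stood apart, as casein array 2 does, and no equal values. These shares therefore check the code and need not hold for the deposited arrays. Alternatives were scaling, a filter on dim genes, cluster choice, the arrays fitted, the variance prior, a replicate block and leaving out each array. The differences between arrays 1 and 2 of a diet correlated across genes at 0.0536 for leucine and dairy, 0.179 for leucine and casein and 0.0865 for dairy and casein, not all above 0.1, so replicate numbers were not taken as pairs.

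The members, the gene lists and the tests were chosen with earlier results of these data known. Related genes were named by rule: up to 4 per list and comparison with the smallest p under 0.05, and the 3 genes of above-median signal nearest in pattern to Mmp2, Mmp14, Timp1 and Lox. Pdgfra, Thy1, Lcn2, Mpo and Timp4 were named outside this rule, after their values were seen. So were the genes that reached an unadjusted p under 0.05 when an array was left out.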

Additional observations from a re-analysis of the deposited data

How the results depend on the processing

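With 2 arrays per diet, 1 array decides many values. Under scaling, filtering, cluster choice, variance prior, a fit of the 2 diets alone and the replicate block, 0 genes passed the adjusted threshold of limma in each of the 3 comparisons. With arrays left out, the count ranged from 0 to 1 for leucine and for dairy against casein, the 1 arising without casein array 1, with lowest adjusted p of 0.0445 and 0.0379, and stayed at 0 for leucine against dairy. Also with arrays left out in turn, the number of members at an unadjusted p under 0.05 ranged from 2 to 5 for leucine against casein, 1 to 5 for dairy against casein and 4 to 7 for leucine against dairy. Over the same fits the median log2 fold change of the members ranged from −0.46 to −0.21, from 0.13 to 0.40 and from −0.71 to −0.54 in the same order, while among the 8 members above the median gene it was −0.49 for leucine against casein and −0.74 for leucine against dairy. With the replicate block 4, 2 and 7 members had an unadjusted p under 0.05, against 4, 3 and 7 without it, since Loxl2 for dairy against casein had a p of 0.0539, and the block changed no call at the adjusted threshold. Directions turned with arrays left out for Timp3 (−0.83 to 0.16) between leucine and casein, for Mmp9 (−0.166 to 0.0742), Timp1 (−2.49 to 0.40), Timp2 (−0.0371 to 0.522) and Timp3 (−0.30 to 0.68) between dairy and casein, and for Mmp9 (−0.346 to 0.0201) between leucine and dairy. Quantile normalization turned Loxl2 between leucine and casein to 0.0688 and Mmp9 between dairy and casein to 0.0382. Subtraction of array medians turned that Loxl2 value to 0.0701. It also moved the median of all genes for leucine against casein to 0.10, and of the genes at an unadjusted p under 0.05, 21.2% were then lower, against 50.4% as reported. For dairy against casein that share was 35.5% against 48.1%, and for leucine against dairy 38.8% against 60.5%. The cause was not tested. Mmp2, Lox and Loxl1 for leucine against both other diets, Timp2 for the same, and Adamtsl4 for dairy against casein and leucine against dairy kept their direction under all alternatives run. Most of these alternatives could not have turned them. Their arrays lay apart in these comparisons, so leaving out an array cannot change the direction. The variance prior, the block, the filter and the fit of the 2 diets alone leave the fold change as it is, and each member had 1 cluster. Only the scalings could have turned these directions.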
